A study of Homo sapiens with 5 samples.

Results

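The genes described here are 10 regulators that restrain JAK-STAT signaling, namely SOCS1, SOCS2, SOCS3, SOCS4, SOCS5, SOCS6, CISH, PIAS1, PTPN2 and PTPN11. Their H3K27ac peaks were chosen by position, as those with a center within 10 kb of any transcription start site of a member in GENCODE release 44. This gave 15 of the 20087 peaks, and all 10 genes had at least 1. Acetylation of histone H3 at lysine 27, a mark of active promoters and enhancers, was profiled by ChIP-seq in HCT116 cells, a human colorectal carcinoma line. The derivative carries CMV-osTIR1, an auxin receptor driven by a viral promoter, and RAD21-mAC, a cohesin subunit fused to an auxin-inducible degron. All cells received 0.1% DMSO for 6 h. They were then given IFN-β at 1000 unit/ml for 1 h (2 libraries, labelled 60 min) or nothing further (2 unstimulated control libraries, labelled 0 min), and 1 input library served as background. The labels place both groups at different times, so IFN-β and 1 h of further culture cannot be told apart. The labels do not say whether the libraries of a group came from separate cultures.

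Type I interferon binds its receptor and activates the kinases JAK1 and TYK2, which phosphorylate STAT proteins. The STATs enter the nucleus and bind the interferon-sensitive response element (ISRE), together with IRF9, or gamma-activated sites (GAS). The pathway is switched off at several levels. SOCS1, SOCS3, CISH and SOCS2 are classical feedback genes, induced by STATs in many cell types, whose products block kinases or occupy receptors. SOCS4, SOCS5 and SOCS6 belong to the same family and are known mostly for roles outside interferon signaling. PIAS1 binds activated STAT proteins and acts as a SUMO ligase. The tyrosine phosphatase encoded by PTPN2 removes phosphate from JAKs and STATs, and that encoded by PTPN11 (SHP2) also carries signals from growth factor receptors to RAS.

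For each peak the table gives a mean over the 2 libraries of each group, as the log2 of normalized reads, and holds no value per library. The values below therefore have no SD and no test between libraries. The mean normalized reads summed over all peaks were 540427 with IFN-β and 876825 without, and the median difference over all peaks, IFN-β minus control, was -0.69 on the log2 scale. Each difference is thus given as such and also relative to this median, called the relative difference. The lowest values of both groups lay on steps of whole reads, with 1 read per library as the lowest (log2 signal -0.17 in the control and -0.59 with IFN-β), and this scale was used to turn each signal into a number of reads. The 95% intervals below are exact binomial intervals of the ratio of these reads. They cover counting error only, not the spread between libraries, and they treat the listed reads as counted, although reads of the input may have been subtracted. Of the markers of the cell type, all 4 epithelial genes examined (EPCAM, KRT8, KRT18 and CDH1) had peaks within 10 kb, of the intestinal genes CDX2 had a peak and CDX1, VIL1 and HNF4A had none, and the leukocyte genes PTPRC and CD3E had none. Of the mesenchymal genes, COL1A1 had a peak 199 bp from a start and COL1A2 and PDGFRB had none, and the part of such cells in the results was not tested.

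The sequences within 500 bp of the peak centers were searched on both strands for the ISRE core (GAAA, any 2 bases, GAAA), for GAS (TTCNNNGAA) and for its stricter form, the STAT palindrome TTCCNGGAA, all of whose matches are GAS matches too. Matches occurred in the start peaks of SOCS1, SOCS2, SOCS3, CISH and PTPN11 and in a peak upstream of SOCS6. The stretches below, at SOCS1, CISH, SOCS2 and PTPN11, carry such matches and are shown because they are STAT and ISRE letters within the measured acetylation. They are taken from GRCh38 on the strand of the gene, with the matches in capitals.
SOCS1, ISRE core in the promoter, chr16:11256268-11256387, minus strand: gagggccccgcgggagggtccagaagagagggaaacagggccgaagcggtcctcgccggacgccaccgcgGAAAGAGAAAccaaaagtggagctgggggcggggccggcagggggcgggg
CISH, proximal GAS pair, chr3:50611868-50611907, minus strand: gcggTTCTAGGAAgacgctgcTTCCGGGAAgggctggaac
CISH, distal GAS pair, chr3:50611991-50612020, minus strand: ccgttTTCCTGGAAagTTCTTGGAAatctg
SOCS2, GAS pair, chr12:93570881-93570930, plus strand: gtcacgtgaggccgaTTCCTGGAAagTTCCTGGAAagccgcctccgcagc
PTPN11, ISRE core in an intron, chr12:112419664-112419693, plus strand: tcacgtgccaGAAATGGAAAaactgactgt

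The SOCS1 match lies 104 bp upstream of the start of the canonical transcript, measured from its nearer edge, and within an intron of RMI2. The proximal CISH pair lies 104 bp and 121 bp upstream of the canonical start and the distal pair 222 bp and 233 bp upstream. The distal pair is in an annotated UTR of MAPKAPK3, which runs in the opposite direction. The SOCS2 pair, 1771 bp and 1760 bp upstream of the canonical start, falls within SOCS2 and in an exon of the antisense gene SOCS2-AS1. SOCS2 had 1 further GAS match in its peak, 1843 bp upstream. The PTPN11 match is in an intron of PTPN11, near the edge of the window searched.

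After 1 h of IFN-β, none of the 10 peaks at the starts of these genes had a higher H3K27ac signal than in the control. All 10 were lower, with differences between -1.41 (PIAS1) and -0.40 (CISH) and a median of -0.765, against -0.75 over the 11334 peaks within 1 kb of a protein-coding start, of which 2.81% were above 0. Of the 15 peaks, 14 were lower with IFN-β and 1, upstream of SOCS6, was higher. That is 6.67% above 0, where 5.93% of all 20087 peaks were above 0, so the share was close to the background. The median difference of the 15 peaks was -0.74, or -0.05 relative to all peaks.

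**Figure D1:**
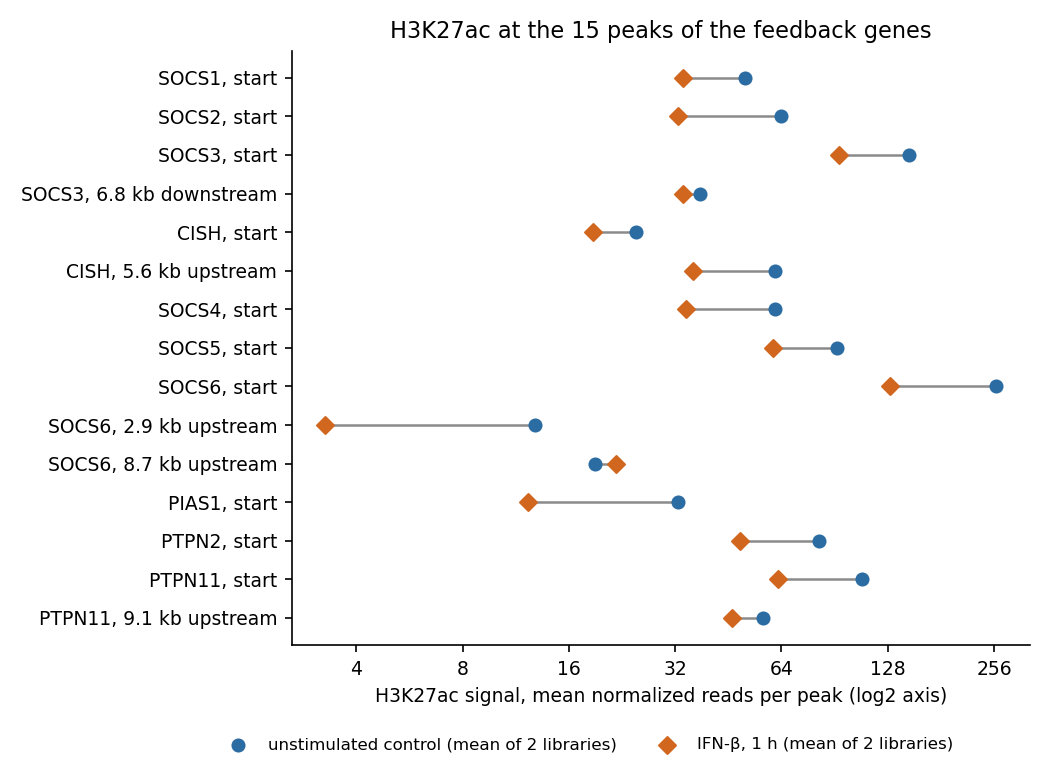
H3K27ac signal at the 15 peaks in mean normalized reads per peak on a log2 axis, for the control (circles) and after 1 h of IFN-β (diamonds), each the mean of 2 libraries with no error given in the table. The diamond lies left of the circle in 14 peaks and right of it only in the peak 8.7 kb upstream of SOCS6.

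SOCS1, the kinase inhibitor most closely tied to interferon, had 1 peak (chromosome 16, 11255718 to 11256718), centered 14 bp from its start and within an intron of RMI2. Its signal was 50.6 normalized reads in the control and 33.6 with IFN-β, a difference of -0.59 (95% interval -0.996 to -0.196). Relative to all peaks this was 0.10 (-0.31 to 0.49), so SOCS1 could not be told from the median peak at this depth. The peak carries the ISRE core shown above.
SOCS3, which inhibits JAKs bound to cytokine receptors, had the second highest start signal of the 10 genes. Its start peak (chromosome 17, 78359719 to 78360719) had 147 reads in the control and 93.1 with IFN-β. The difference was -0.66 (-0.90 to -0.43), next to the median of all peaks. A start of SOCS3-DT, a long noncoding RNA gene, is 157 bp from the center of that peak. A peak 6.8 kb downstream (78352802 to 78353802, outside annotated genes) had 37.5 and 33.6 reads, a difference of -0.16 (-0.59 to 0.28). Its relative difference was 0.53 (0.10 to 0.97), with 89.8% of all peaks lower.
CISH, a SOCS family member that binds STAT5-activating receptors, had the weakest start peak in the control (chromosome 3, 50611420 to 50612420). This peak had 24.8 reads in the control and 18.8 with IFN-β, where the PIAS1 start peak was weaker. The difference was -0.40 (-0.98 to 0.14) and the relative difference 0.29 (-0.29 to 0.83). The center of this peak lies 12 bp from a start of MAPKAPK3, a kinase gene transcribed the other way, so the signal cannot be assigned to CISH alone. The peak 5.6 kb upstream (50616866 to 50617866) is centered 24 bp from another MAPKAPK3 start, and had 61.4 and 36.0 reads with a difference of -0.77 (-1.15 to -0.40).
SOCS2, which restrains growth hormone signaling, had 1 peak (chromosome 12, 93570758 to 93571758) in introns of SOCS2 and SOCS2-AS1. Its center lies 66 bp from a SOCS2 start that is not the canonical start, and 140 bp from a SOCS2-AS1 start. The signal thus cannot be assigned to SOCS2 alone. This peak had 64.0 reads in the control and 32.7 with IFN-β. The difference was -0.97 (-1.36 to -0.59), and 19.9% of all peaks were lower. Of the 6 peaks of these 4 feedback genes, 0 were above 0 and 4 were above the median of all peaks, which 49.1% of all peaks exceeded. Their median difference was -0.625.

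SOCS4, SOCS5 and SOCS6 had 5 peaks with a median difference of -0.84, and they held both the highest and the lowest difference of the 15. SOCS4 had 1 peak (chromosome 14, 55026630 to 55027630) shared with WDHD1, a replication factor gene whose start is 25 bp from the center. It had 61.4 reads in the control and 34.3 with IFN-β, a difference of -0.84 (-1.23 to -0.46). The SOCS5 peak (chromosome 2, 46698135 to 46699960) was the only 1 of the 15 wider than 1000 bp. It overlaps exons of SOCS5 and LINC01118, and its center is 107 bp from a start of LINC01118. Its 91.8 reads in the control and 60.6 with IFN-β gave a difference of -0.60 (-0.90 to -0.31).
SOCS6 had 3 peaks, with the widest range of differences among the members. The start peak (chromosome 18, 70288597 to 70289597) had 260 reads in the control, more than 99.9% of all peaks, and 130 with IFN-β. The difference was -1.0 (-1.19 to -0.81) and the relative difference -0.31 (-0.50 to -0.12). The peak 2.9 kb upstream (70285604 to 70286604) had the lowest difference of the 15, with 12.8 reads in the control and 3.27 with IFN-β, -1.97 (-3.16 to -0.88). The interval is wide because only about 29 reads in the control and 10 with IFN-β stand behind it.
The peak 8.7 kb upstream (70279849 to 70280849) holds 2 STAT palindromes and was the only 1 of the 15 with more signal after IFN-β. It had 19.0 reads in the control and 21.7 with IFN-β, a difference of 0.19 (-0.40 to 0.77), so counting error alone leaves the sign undetermined. Relative to all peaks the difference was 0.88 (0.29 to 1.46), and 96.5% of all peaks and 96.8% of the 2647 peaks with a mean signal within 0.25 log2 units were lower. Both upstream peaks lie outside annotated genes.

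PIAS1, the SUMO ligase that binds STAT proteins, had the lowest difference of any start peak. Its only peak (chromosome 15, 68054068 to 68055068, centered 8 bp from its start) had 32.7 reads in the control and 12.3 with IFN-β, a difference of -1.41 (-2.03 to -0.83). The relative difference was -0.72 (-1.34 to -0.14), and 3.44% of all peaks were lower. Among 2733 peaks of like mean signal 2.09% were lower.

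The phosphatase genes stayed close to the median of all peaks at their starts. PTPN2 (chromosome 18, 12883463 to 12884463, in an intron of PTPN2) had 81.6 reads in the control and 48.8 with IFN-β, a difference of -0.74 (-1.07 to -0.42). PTPN11 (chromosome 12, 112418696 to 112419696) had 108 and 62.7 reads, a difference of -0.79 (-1.07 to -0.51). A start of RPL6, a ribosomal protein gene, is 358 bp from the center of that peak. The peak 9.1 kb upstream of PTPN11 (112408748 to 112409748) is centered 63 bp from another RPL6 start, in an exon of that gene, and had 56.9 and 46.2 reads. Its difference was -0.30 (-0.66 to 0.06), or 0.39 (0.03 to 0.75) relative to all peaks.

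**Figure D2:**
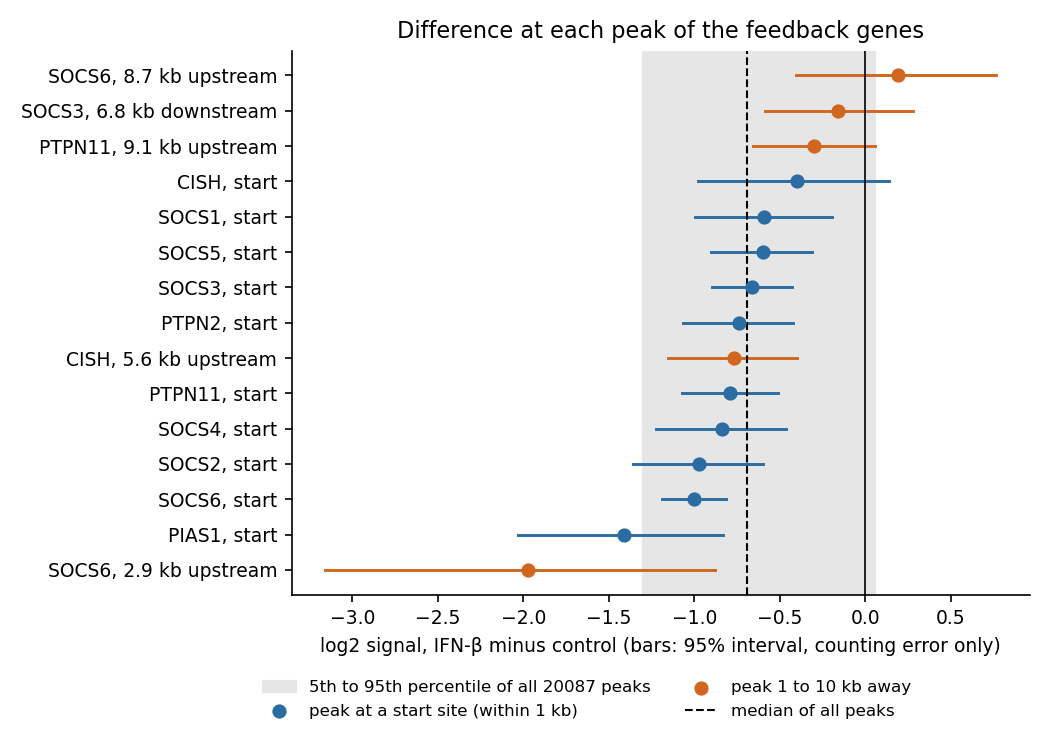
Difference in log2 signal, IFN-β minus control, for each of the 15 peaks, with 95% intervals for counting error only. The dashed line is the median of all 20087 peaks (-0.69), the gray band runs from their 5th to their 95th percentile (-1.30 to 0.06), and the start peaks (blue) lie within the band except that of PIAS1.

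The start peaks differed in level. Per kb of peak, the control signal was 260 normalized reads at SOCS6 (Poisson 95% interval 239 to 281, counting error only), 147 at SOCS3 (132 to 164) and 108 at PTPN11 (95.3 to 123), and none of these intervals overlapped the next lower. PTPN2 followed at 81.6 (70.4 to 94.5), then SOCS2 at 64.0 (54.0 to 75.3), SOCS4 at 61.4 (51.5 to 72.5), SOCS1 at 50.6 (41.8 to 60.9) and SOCS5 at 50.3 (43.8 to 57.8). The interval of each of these overlapped those of its neighbors among them, and the steps between them were not tested. PIAS1 at 32.7 (25.8 to 41.3) and CISH at 24.8 (18.8 to 32.3) were the lowest and overlapped each other, below all others. With IFN-β the 4 highest genes kept their order. SOCS2 was at rank 8 instead of 5, with an interval that overlapped those of SOCS4, SOCS1 and SOCS5, and CISH was above PIAS1, again with overlapping intervals. In all 45 pairs of start peaks, the intervals of the differences in signal overlapped, and the pairs themselves were not tested.

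Read against counting error, the interval of the difference lay below 0 in 11 of the 15 peaks, beside 65.3% of all peaks, and above 0 in 0, beside 0.602%. The interval lay wholly above the median of all peaks in 3 of the 15 (8.04% of all peaks) and wholly below it in 3 (7.43% of all peaks). The 3 above were the flanking peaks of SOCS3, SOCS6 (8.7 kb) and PTPN11, and the 3 below were the start peaks of SOCS6 and PIAS1 and the SOCS6 peak at 2.9 kb. By size, 0 of the 15 were over 1 log2 unit above the median of all peaks (2.44% of all peaks) and 1 was over 1 unit below it (1.37% of all peaks), the SOCS6 peak at 2.9 kb. Base composition moved with these values over all peaks, with a median difference of -0.48 in the lowest of 10 equal GC bins and -0.82 in the highest. The start peaks had a median GC content of 70.8% and the flanking peaks 50.4%. Relative to the median of its own GC bin, the difference was 0.68 at the SOCS6 peak 8.7 kb upstream (GC content 40.3%), 0.64 at the downstream SOCS3 peak, 0.40 at the CISH start, 0.23 at SOCS1, -0.61 at PIAS1 and -1.38, the lowest of the 15, at the SOCS6 peak 2.9 kb upstream.

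**Figure D3:**
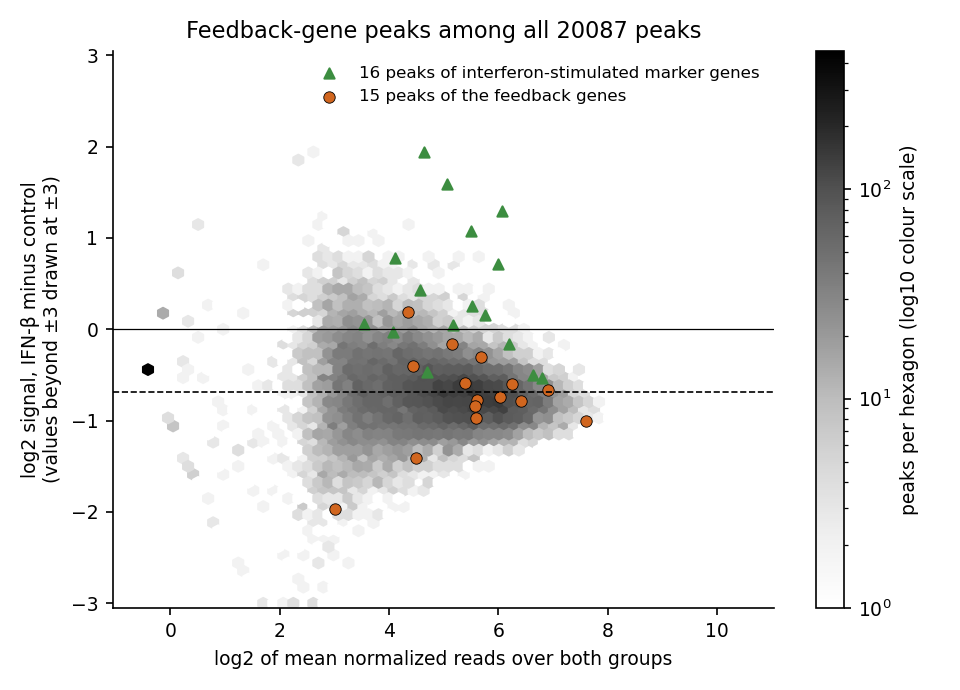
Difference in log2 signal, IFN-β minus control, against the log2 of mean normalized reads for all 20087 peaks (gray hexagons, darker with more peaks), the 15 feedback-gene peaks (orange circles) and 16 peaks of interferon-stimulated marker genes (green triangles). The feedback-gene peaks spread around the dashed median of all peaks (-0.69), while the marker peaks reach up to 1.94.

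The STAT palindrome occurred in 4 of the 15 peaks and in 3.60% of all peaks, and 2 or more occurred in 19 of the 20087 peaks, of which 3 were the peaks of SOCS2, CISH (start) and SOCS6 (8.7 kb upstream). GAS occurred in 4 of the 15 and in 21.8% of all peaks. The 4 GAS matches of the CISH start peak were reached or exceeded in 9 peaks in all. The ISRE core occurred in 2 of the 15 and in 11.6% of all peaks. The 4 peaks with a palindrome had differences of -0.97 (SOCS2), -0.66 (SOCS3), -0.40 (CISH) and 0.19 (SOCS6), on both sides of the median of -0.63 over all peaks that hold it. The peaks with an ISRE core had differences of -0.59 (SOCS1) and -0.79 (PTPN11), against a median of -0.58 over all peaks with that core. Those peaks had a median GC content of 49.7%, against 75.3% at SOCS1 and 71.1% at PTPN11. Relative to the medians of their own GC bins, the differences were 0.23 at SOCS1 and 0.01 at PTPN11. A match is a description of the letters and not evidence of binding.

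The other genes of the pathway are given for comparison. Of 12 interferon-stimulated genes taken as markers of the stimulus, 11 had a total of 16 peaks within 10 kb. Above 0 were 11 of these peaks (68.8%, beside 5.93% of all peaks), and their median was 0.205. IFI6 had the highest difference, 1.94 (1.30 to 2.66). ISG15, the ubiquitin-like modifier, was lowest when its 4 peaks were summed, at -0.12. Its peak centered 232 bp from an annotated start had 1.30 (0.96 to 1.67). That centered 10 bp from another annotated start had -0.53 (-0.77 to -0.29), and the remaining ISG15 peaks had -0.50 and -0.47. Among the genes from receptor to STAT, IRF9, a DNA-binding partner of STAT proteins, was highest at 1.29 and JAK2, a receptor-bound kinase, lowest at -0.89. STAT2 had a difference of 0.46, and the median over the 15 peaks of this list was -0.47.
Most peaks of regulators related to the 10 genes were also below 0, as were most peaks in general, since only 5.93% of all peaks were above 0. SOCS7, PIAS2, PIAS3 and PIAS4 had 1 peak each, with differences between -0.91 (SOCS7) and -0.84 (PIAS4), and 0 of 4 were above 0. The 6 peaks of the proteins that join SOCS boxes to ubiquitin ligases (ELOB, ELOC, CUL5, RNF7 and RBX1) ranged from -0.91 at RBX1 to -0.64 at ELOC. Among other negative regulators, 1 of 8 peaks was above 0, that at the start of USP18, which removes ISG15 from proteins and blocks the interferon receptor, with 21.6 reads in the control and 26.9 with IFN-β. Its difference of 0.32 (-0.22 to 0.85) was 1.01 relative to all peaks. The lowest gene of that list, with its peaks summed, was PTPN1 at -0.91, and PTPRC had no peak. These lists hold few genes and were described by counts and medians only.

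**Figure D4:**
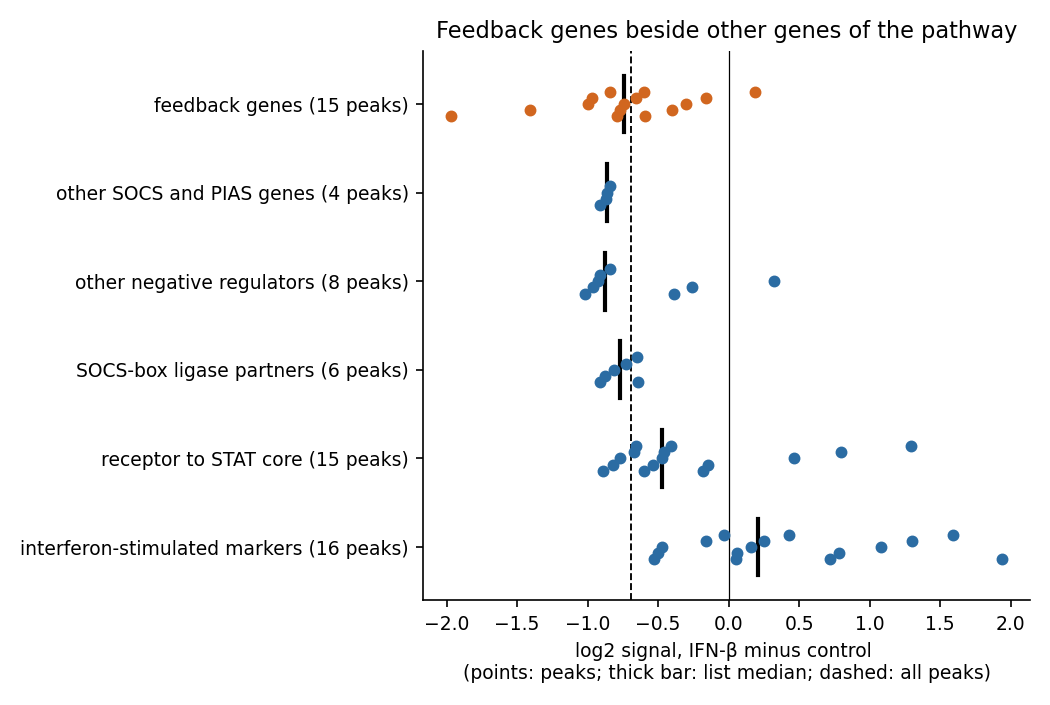
Difference in log2 signal, IFN-β minus control, for each peak (points) of the feedback genes and of 5 other lists of pathway genes, with the list median as a thick bar and the median of all peaks dashed. The median is -0.74 for the feedback genes, 0.205 for the interferon-stimulated markers and -0.47 for the genes from receptor to STAT.

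Within 100 kb of the starts, a range taken after the data were examined, 42 further peaks were found, with a median difference of -0.685. Of these, 4 (9.52%) were above 0, beside 5.93% of all peaks. The peak 56.2 kb upstream of SOCS1 (chromosome 16, 11311865 to 11312865) is centered 535 bp from a start of RMI2, a gene of the complex that dissolves crossed DNA strands. It had 22.6 reads in the control and 35.0 with IFN-β, a difference of 0.63 (0.13 to 1.13), and holds 2 ISRE cores and 1 GAS. The peak 20.8 kb downstream of SOCS3 had 6.50 and 11.1 reads, a difference of 0.77 (-0.20 to 1.70), and no match to any of the 3 motifs. The peak 13.2 kb upstream of CISH, near MAPKAPK3, had a difference of 0.22 (-0.43 to 0.89), and that 77.5 kb downstream of SOCS5 had 0.09 (-0.36 to 0.53). Around SOCS2, SOCS4, PIAS1, PTPN2 and PTPN11 every peak beyond 10 kb and within 100 kb was below 0, and so were the 10 such peaks around SOCS6.

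**Figure D5:**
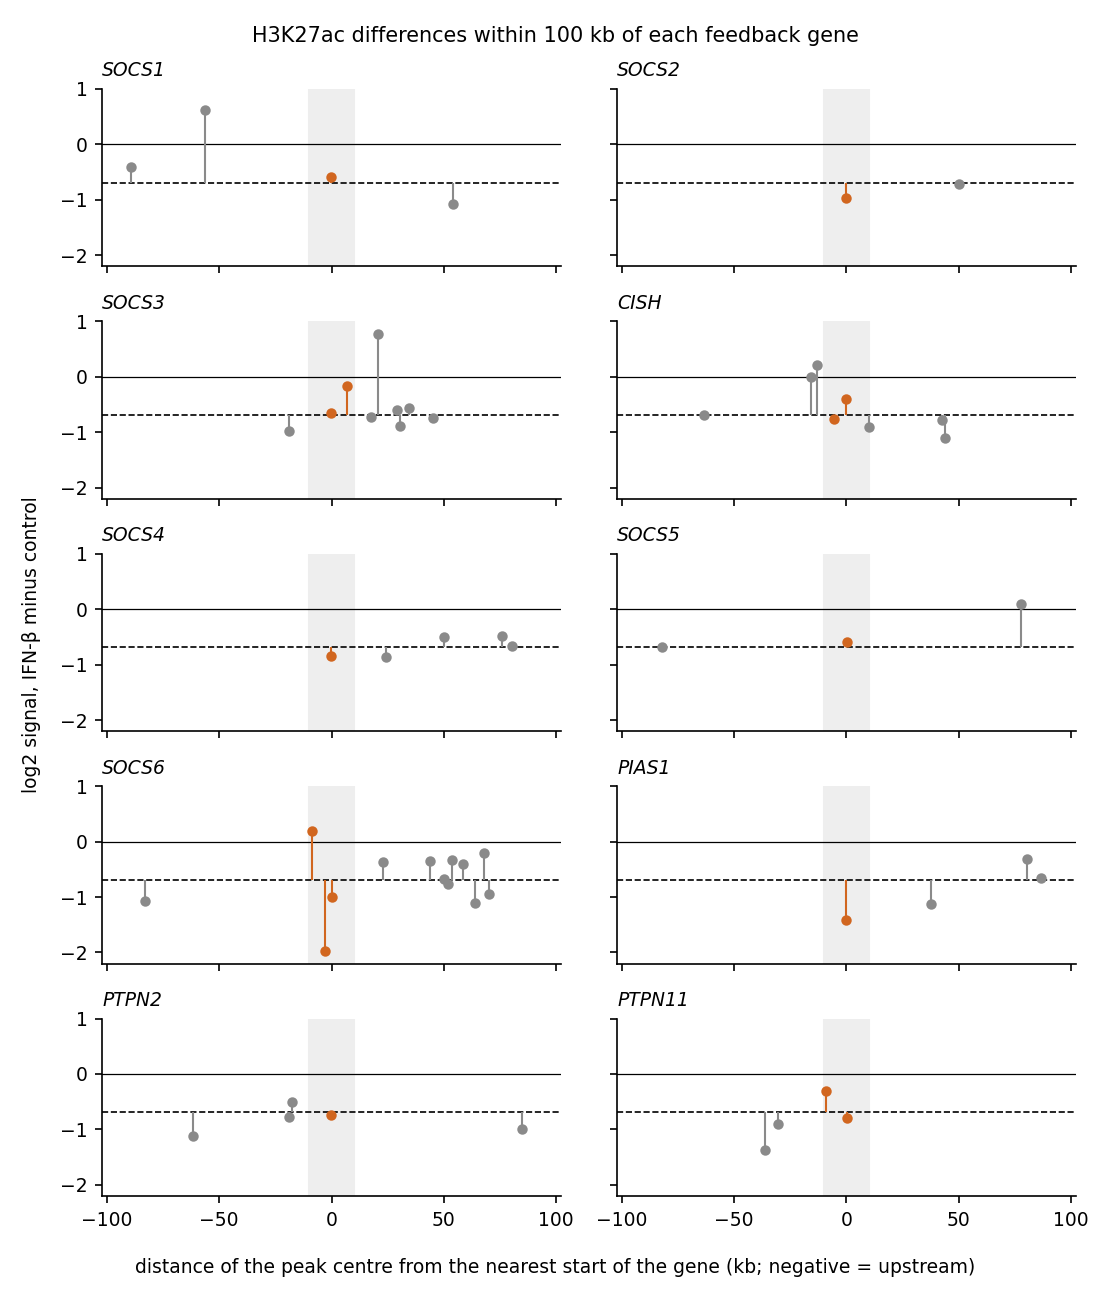
Difference in log2 signal, IFN-β minus control, of each peak within 100 kb of the 10 genes, plotted by the distance of its center from the nearest start of the gene in kb (negative is upstream). Orange peaks lie within the 10 kb used for the main results (gray band), gray peaks outside it, stems start at the dashed median of all peaks, and the peaks above 0 are those near SOCS1 (0.63), SOCS3 (0.77), CISH (0.22), SOCS5 (0.09) and SOCS6 (0.19).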

How the data were processed

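Per the labels and the methods of the study, the authors trimmed reads with fastp 0.19.3, aligned them to GRCh38 with Bowtie2 (listed as version 2.25), called peaks with MACS2 against the input, and merged and counted them with DiffBind, which ran DESeq2. The deposited log2 values are group means of normalized reads. The deposited fold, p-value and FDR columns hold the authors' own comparison and were not used. Coordinates are as deposited. Differences were computed from the log2 columns, and all 39 sequence names matched the reference.

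No test between groups was run, since the table has no value per library. Peaks were assigned with GENCODE release 44, and GC content and motifs were read within 500 bp of each center in Python 3.11.15 (numpy 2.4.6, pandas 2.3.3, scipy 1.17.1, matplotlib 3.10.9). The ratio intervals were tested on simulated Poisson counts only, with no spread between libraries and no subtraction of input reads. Reads were taken as each signal over the lowest value, with 1 read per library. All 13 distinct low control values and 12 with IFN-β fell on whole-read steps (tolerance 0.01). Named are all members and, of each other list, the highest and lowest gene, except the USP18, STAT2 and neighboring peaks, named after their values were seen. Some genes and sequences are not reported here. Members and lists were chosen with earlier results of these data known.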

Additional observations from a re-analysis of the deposited data

How the results depend on the processing

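Of 76 values recomputed under alternatives, 65 stayed within 1.5 times the count or within the interval of the value, and 11 did not, all of them small counts. The count of peaks above 0 (1 of 15) was 0 with a distance of 5 kb and 0 with 1 kb. With only peaks above the median control signal it was 0. It was 3 of 36 with 50 kb and 5 of 57 with 100 kb (added after the data were examined), beside 5.93% of all peaks. The count of peaks over 1 log2 unit above the median of all peaks was 0. It became 1 of 36 with 50 kb and 2 of 57 with 100 kb, beside 2.44% of all peaks. With a threshold of 0.5 this count was 2 of 15, beside 2160 of all 20087 peaks. The count over 1 unit below the median of all peaks was 1, beside 1.37% of all peaks. It became 0 with 1 kb and 0 with peaks above the median control signal. With a threshold of 0.5 it was 2 of 15, beside 1513 of all 20087 peaks. The median difference was below 0 in all 7 alternatives, but so was the median of all peaks (-0.69), so this sign says little about the members. The 30 recomputed values of single genes stayed within their counting intervals. For genes with 1 peak these values were fixed in advance, since each alternative used the same peak, and they are counted among the 65. The relative median (-0.05) was 0.08 when centered on GC bins, 0.02 on signal bins and 0.01 on promoter peaks. No paired analysis was possible because the table holds group means only, and for the same reason no library was left out. Depth limited the weak peaks most, as the SOCS6 peak at 2.9 kb rests on 29 and 10 reads. The cause of the changed counts was not tested.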

Other observations

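The SOCS6 peak 8.7 kb upstream had control and IFN-β log2 signals of 4.25 and 4.44. It was compared only with peaks within 1 kb of a protein-coding start of a gene outside the 10. Closest among these were the start peaks of EHD2 (4.26 and 4.44), SLFN5 (4.30 and 4.42) and CORO1C (4.26 and 4.50). Their Euclidean distances over these 2 group values were 0.01, 0.054 and 0.061. Above 0 were 5 of the 16 other peaks with 2 or more STAT palindromes. That stands beside 5.93% of all peaks and 8.4% of the 724 peaks with at least 1. The 16 had differences from -1.09 to 0.46, with a median of -0.565. These peaks were picked for their letters after the feedback-gene peaks had been seen, and no test was made.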
